A study of Mus musculus with 12 samples.

Results

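The 26 genes described here are numbered integrin subunits and laminin chains, chosen as rows of the deposited count table whose gene symbol is Itga or Itgb followed by a number, with or without a letter after it, or Lama, Lamb or Lamc followed by a number, out of 18903 genes. They comprise 12 integrin alpha subunits, 6 integrin beta subunits and 8 laminin chains, and all 26 passed the filter on low counts. RNA was sequenced from primary astrocytes cultured from mouse brain at postnatal days 1, 6 and 8 (P1, P6 and P8), in 2 libraries of each genotype at each age and 12 libraries in all. Mice called cKO were hGFAP-Cre::Rack7 fl/fl and mice called WT were hGFAP-Cre::Rack7 +/+, so both genotypes carried the Cre transgene. The Cre is driven by the human GFAP promoter, which is active in progenitors of the embryonic forebrain that give rise to neurons as well as glia, so it is not specific to astrocytes. Rack7, listed as Zmynd8, encodes a chromatin reader protein. The brains were stripped of meninges, and the cells were grown on plates coated with Matrigel, a laminin-rich basement membrane extract. Shaking of the flasks served to take off microglia and oligodendrocytes, and the remaining cells were cultured further. P1, P6 and P8 are the ages of the brains at dissection, and the days in culture came on top of these. The sample titles call the 2 libraries of a group biological replicates without saying whether these were separate animals or cultures, and p-values measure the spread between them.

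Laminins are secreted trimers of an alpha, a beta and a gamma chain, and with collagen IV, nidogens and perlecan they build the basement membrane. In brain they line the vessels and the pial surface, where astrocyte endfeet bind them. Integrins are the receptors for such matrix on the cell surface, each a pair of an alpha and a beta subunit, and they join the matrix to the actin cytoskeleton through talin, kindlin and vinculin. The pairing sets the ligand: alpha 3, alpha 6 and alpha 7 with beta 1 bind laminin, alpha 1, alpha 2, alpha 10 and alpha 11 with beta 1 bind collagen, alpha 5 and alpha 8 bind fibronectin and related proteins, and beta 2 is found on leukocytes, microglia included.

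Library totals lay between 54413504 and 89183250 counts. The targeted gene did not fall under the label cKO. Zmynd8 was counted at 136 and 136 counts-per-million (CPM, against the scaled library total) under the label WT against 213 and 216 under the label cKO at P1, at 114 and 116 against 242 and 230.5 at P6 and at 99.98 and 104 against 160.4 and 171 at P8. A count over the whole gene does not show whether the floxed exons 3 and 4 are present and says nothing of the protein. The study checked RACK7 by immunoblot in such cultures of both genotypes, and it reported loss of the protein in cKO brain tissue. It also reported that a Rack7 transgene put into cKO astrocytes lowered the raised Wnt and astrocyte developmental genes. These measurements are not among the values used here. The paper also reported far fewer RACK7 binding peaks in cKO than in WT primary astrocytes by chromatin immunoprecipitation sequencing, which is likewise not used here. The whole-gene RNA count was higher under the label cKO, and by itself it does not settle which libraries carry the deletion. Every direction below is therefore that of the libraries labelled cKO against those labelled WT. Astrocyte markers (8 genes, among them Gfap, Aqp4 and Slc1a3) summed to between 672 and 2215 CPM, and at P8 to 1526 and 1911 under the label WT and 672 and 686 under the label cKO. Markers of fibroblasts and meninges, 7 of 8 listed genes being in the table, summed to 364 and 378 CPM under the label WT and 2402 and 2439.7 under the label cKO at P1, to 6602 and 6658 and 2412 and 2589 at P6, and to 25723 and 25854 and 8086 and 8335 at P8. Each other list (microglia, endothelial cells, mural cells, oligodendrocyte lineage, neurons, ependymal and choroid plexus cells, megakaryocytes and platelets, Schwann cells) is given where it moved with a member or in the closing observations.

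Per base of exon, integrin beta 1 led the set. Itgb1, the beta subunit shared by most matrix receptors, averaged 511 CPM per kilobase of exon (RPKM) over the 12 libraries, and it was followed by Itgb5, a vitronectin receptor subunit, at 101 and by Itgb2, the leukocyte subunit, at 88.7. The laminin chains of highest level were Lamc1, the gamma chain of most trimers, at 53.0 RPKM, Lamb2 at 52.7 and Lamb1 at 19.3. Lamc1 and Lamb2 do not differ beyond the spread of their 12 libraries. Itga5 at 43.2 RPKM and Itga3 at 41.8 led the alpha subunits and changed places when the longest transcript was used as the length in place of all exons. Below them came Itga6 (20.7 RPKM), Lama5 (18.5), Itgb8 (15.2), Itga1 (10.8), Lama4 (9.99), Lama2 (7.27) and Itga11 (7.07). Itga4, Itga7, Itga9, Itgb3 and Itga8 had mean RPKM values from 2.17 to 4.61, and Itgb4, Lama1, Itga2, Itga2b, Itga10 and Lama3 from 0.386 to 0.968. The order below Itga5 and Itga3 also depended on the length. With the longest transcript, Itgb8 and Lama4 (19.9 RPKM) ranked above Lama5 (18.5), and Itga7 ranked above Itga11. Itga6 was then at 43.2 RPKM, closer to Itga5 (48.3) and Itga3 (49.0) than with all exons. Within genes, CPM is used below. The highest group mean CPM fell under the label WT at P8 for 7 members, Lama1 (19.7), Lama2 (220.1), Lama4 (309), Lamb1 (420.3), Lamc1 (579.7), Itga1 (310.1) and Itga11 (114), and under the label cKO at P6 for 6, Lama5 (452), Lamb2 (523), Itga3 (594), Itga6 (279), Itga7 (59.4) and Itgb5 (489.8). It fell under the label WT at P6 for 5, Lama3 (9.54), Itga2 (5.42), Itga9 (29.3), Itgb1 (3139) and Itgb3 (23.3), and under the label cKO at P8 for 4, Itga4 (86.2), Itga8 (30.5), Itgb2 (427) and Itgb4 (9.95). Itga2b (4.62 CPM), Itga5 (270.5) and Itga10 (3.24) were highest under the label cKO at P1, and Itgb8 (275) under the label WT at P1. The highest group mean exceeded the lowest by 35.2 times for Lama1, 32.5 times for Itga11 and 29.6 times for Lamb1, and by 1.63 times for Itga10, while the coefficient of variation between the 2 libraries of a group had a median of 4.28% over the 156 pairs of member and group.

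The comparison of genotypes at each time point sets the 2 labels side by side in astrocyte cultures from brains of that age. The labels give no litter or preparation, so differences between preparations were not tested apart from genotype or age. A member was called where edgeR's quasi-likelihood test gave an adjusted p below 0.05 (Benjamini-Hochberg over 17938 genes) with a fold change of at least 1.5. At P1, 6 of 26 members were higher in the libraries labelled cKO and 1 was lower, against a background over all genes tested of 4.01% higher and 0.892% lower. At P6, 4 were higher and 8 lower, against 7.16% and 6.38%, and at P8, 6 were higher and 7 lower, against 11.2% and 8.37%. Laminins made up 4 of the 6 higher members at P1, and of the 8 laminin chains 1 rose and 5 fell at P6 and 1 rose and 4 fell at P8. Of the 18 integrin subunits 2 rose and 1 fell at P1, 3 rose and 3 fell at P6, and 5 rose and 3 fell at P8. The median absolute log2 difference of the laminins at P1, P6 and P8 was 0.72, 1.14 and 0.68, that of the integrins 0.17, 0.33 and 0.43, and that of all genes 0.18, 0.27 and 0.33. In all, 18 members were called at 1 or more time points and 3 at all 3 (Lama2, Lama4 and Lamb1, each higher at P1 and lower at P6 and P8). Counting these, 7 members (Lama1, Lama2, Lama4, Lamb1, Itga8, Itga11, Itgb4) were higher at one time point and lower at another. No share over all genes was taken for these counts across ages, so they do not show whether the members stand out. With 2 libraries against 2, an exact permutation test of a single gene cannot go below p = 0.333, so the calls rest on the spread shared across genes in the fit.

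**Figure D1:**
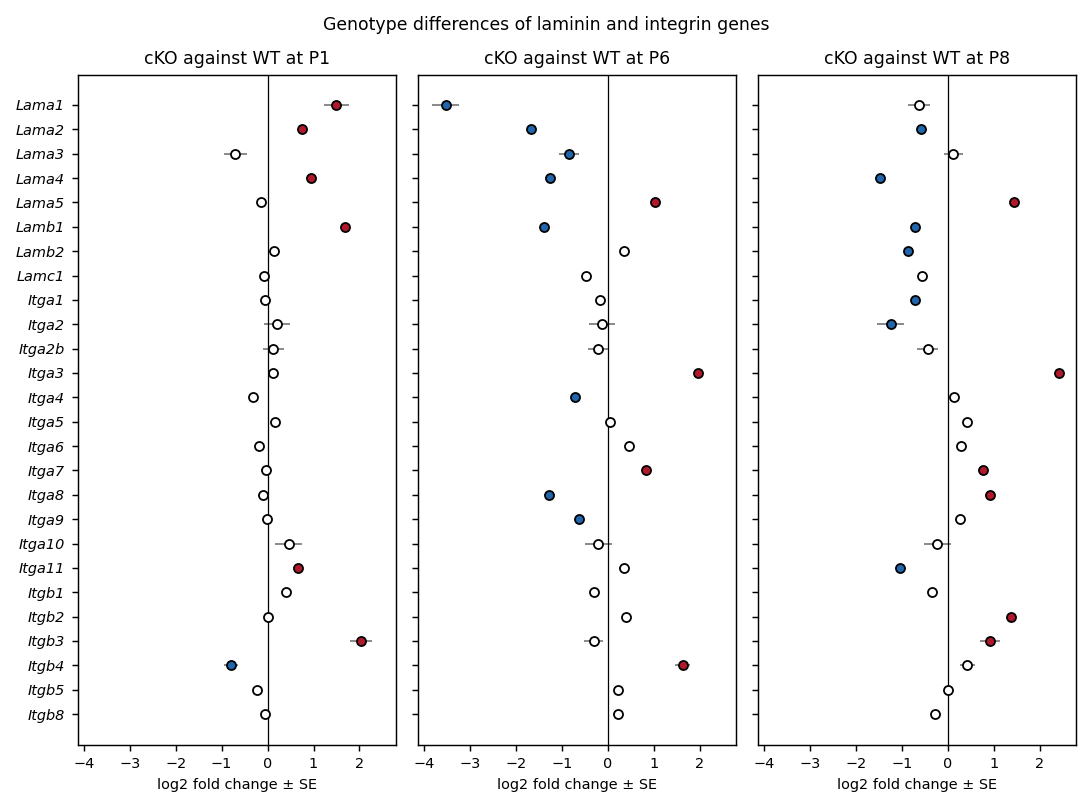
Log2 fold change of the libraries labelled cKO against those labelled WT with its standard error (x axis) for the 26 laminin and integrin genes (y axis) at P1, P6 and P8, from edgeR; red points were called higher, blue points lower, and open points were not called. Lama5 and Itga3 lie to the right at P6 and P8, while Lama1, Lama2, Lama4 and Lamb1 lie to the right at P1 and to the left at P6.

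Promoter sequences are shown for 4 members that form 2 contrasting pairs, since Lama5 and Itga3 were both higher under the label cKO at P6 and P8, while Lamb1 and Lama2 were higher at P1 and lower at P6 and P8. The 250 bases before the annotated start of each gene were read from RefSeq (GRCm38.p6) on the strand of the gene, 5′ to 3′. They lie at chr2:180225860-180226109 (minus strand) for Lama5, chr11:95076715-95076964 (minus) for Itga3, chr12:31265043-31265292 (plus) for Lamb1 and chr10:27616943-27617192 (minus) for Lama2. The window of Lama5 ends at the gene start of the GENCODE annotation. Those of Itga3 and Lamb1 lie partly inside the GENCODE gene span, whose start is further upstream. That of Lama2 lies wholly inside its GENCODE span, which starts at 27619758 on the minus strand. Capitals mark GC boxes, the letters GGGCGG on either strand.
Lama5: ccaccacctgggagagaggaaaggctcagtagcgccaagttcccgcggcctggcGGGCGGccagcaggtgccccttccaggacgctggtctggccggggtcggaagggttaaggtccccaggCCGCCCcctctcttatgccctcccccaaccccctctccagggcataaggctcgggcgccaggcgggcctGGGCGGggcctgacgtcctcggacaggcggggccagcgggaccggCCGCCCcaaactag
Itga3: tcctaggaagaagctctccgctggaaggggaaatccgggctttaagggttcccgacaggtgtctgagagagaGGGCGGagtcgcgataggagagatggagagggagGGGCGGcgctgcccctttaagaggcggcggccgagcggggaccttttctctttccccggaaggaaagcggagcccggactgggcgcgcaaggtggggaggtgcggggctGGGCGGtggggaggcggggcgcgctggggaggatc
Lamb1: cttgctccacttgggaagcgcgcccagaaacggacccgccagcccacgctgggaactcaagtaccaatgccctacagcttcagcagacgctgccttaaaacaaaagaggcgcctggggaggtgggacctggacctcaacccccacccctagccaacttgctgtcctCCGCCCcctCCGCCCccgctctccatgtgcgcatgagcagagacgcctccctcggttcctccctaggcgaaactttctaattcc
Lama2: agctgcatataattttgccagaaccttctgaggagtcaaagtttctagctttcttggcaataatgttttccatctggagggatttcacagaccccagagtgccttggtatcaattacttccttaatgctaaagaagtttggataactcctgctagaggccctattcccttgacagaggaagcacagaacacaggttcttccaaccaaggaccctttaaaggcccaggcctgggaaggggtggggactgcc
The windows of Lama5, Itga3 and Lamb1 hold 19, 22 and 14 CpG dinucleotides and 4, 3 and 2 GC boxes. That of Lama2 holds 0 CpG dinucleotides and no GC box. Its letters lie inside the GENCODE gene and do not describe the sequence before the GENCODE start. A second window of Itga3, before a start inside the gene (chr11:95069199-95069448, minus strand), holds 5 CpG dinucleotides and 1 GC box. The median over all windows was 6 CpG dinucleotides. Windows were given for 17 of the 26 members (18 windows), and 8 of these 18 held GGGCGG, against 32.7% of 32851 windows of the same length. The AP-1 motif TGANTCA was in none of the 18 (6.75% of all windows), the TEAD motif GGAATG in 2 (12.6%) and the TATA box TATAAA in none (12.4%), each searched on both strands. These matches describe letters in a window, not occupied sites.

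Among the alpha chains, Lama5 was higher at P6 and P8, where Lama2 and Lama4 were lower. Lama5 (ENSMUSG00000015647, chromosome 2, 180176373 to 180225859, minus strand) encodes alpha 5, the widest-spread alpha chain of mature vessel and epithelial basement membranes. Its CPM was 239.5 and 248 under the label WT and 227 and 214 under the label cKO at P1, 228 and 217 against 455 and 448 at P6, then 33.6 and 35.8 against 95.1 and 93.0 at P8. The P1 values under the label cKO lay a little below those under the label WT, and at P6 and P8 they lay clearly above. The log2 fold change was -0.15 ± 0.049 at P1 (edgeR adjusted p = 0.108), 1.02 ± 0.049 at P6 (adjusted p = 7.5e-07) and 1.44 ± 0.05 at P8 (adjusted p = 5.82e-08).

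Lama4, the alpha chain of endothelial and mesenchymal matrix, was at 23.6 and 30.9 CPM against 51.0 and 54.7 at P1, at 166 and 150.5 against 65.5 and 66.3 at P6, and at 308 and 310.3 against 112 and 109 at P8, the label WT first in each pair. The order of the labels was thus turned round between P1 and P6, with no overlap at any age (log2 fold change 0.95 ± 0.11, -1.26 ± 0.11 and -1.48 ± 0.11, edgeR adjusted p = 0.000579, 3.09e-05 and 6.37e-06). Lama2, the alpha 2 chain or merosin of muscle, nerve and brain vessels, went the same way, from 29.1 and 29.1 CPM against 51.6 and 45.5 at P1 to 216 and 193 against 62.0 and 66.0 at P6, then 221 and 219 against 147 and 146 at P8. Its log2 fold changes were 0.74 ± 0.074, -1.67 ± 0.074 and -0.59 ± 0.072, with edgeR adjusted p = 0.000266, 4.51e-07 and 0.000209. The P8 call is close to the fold threshold and was lost without WT replicate 1 (fold 1.493) and without cKO replicate 2 (fold 1.496).

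Lama1, the alpha 1 chain of embryonic and pial basement membranes, was low throughout. It was at 1.21 and 0.995 CPM against 3.88 and 2.30 at P1, at 5.73 and 7.26 against 0.670 and 0.451 at P6 and at 18.8 and 20.6 against 11.9 and 13.5 at P8. Under the label WT it rose with age, while under the label cKO it dipped at P6 to its lowest level. The log2 fold change was 1.49 ± 0.27 at P1 (edgeR adjusted p = 0.00896), -3.53 ± 0.29 at P6 (adjusted p = 2.68e-05) and -0.63 ± 0.24 at P8 (adjusted p = 0.074). The P1 call was lost without WT replicate 2 (adjusted p = 0.0719) and with the P1 libraries alone (adjusted p = 0.0835), and the P8 difference was called by DESeq2 (adjusted p = 0.0372), with the P8 libraries alone (0.00923), without P1 cKO replicate 1 (0.0301) and without P1 cKO replicate 2 (0.0294). Lama3, the epithelial alpha 3 chain, was low as well. Its CPM was 1.04 and 1.36 against 0.782 and 0.702 at P1, 10.02 and 9.05 against 4.51 and 6.15 at P6, then 3.73 and 4.003 against 4.80 and 3.602 at P8. It was called lower at P6 (log2 -0.84 ± 0.22, edgeR adjusted p = 0.0188), and this call was lost without WT replicate 1 (0.0922), without WT replicate 2 (0.0501) or without cKO replicate 1 (0.115). At P1 and P8 its log2 differences of -0.70 ± 0.24 and 0.12 ± 0.22 were not called (edgeR adjusted p = 0.125 and 0.728).

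**Figure D2:**
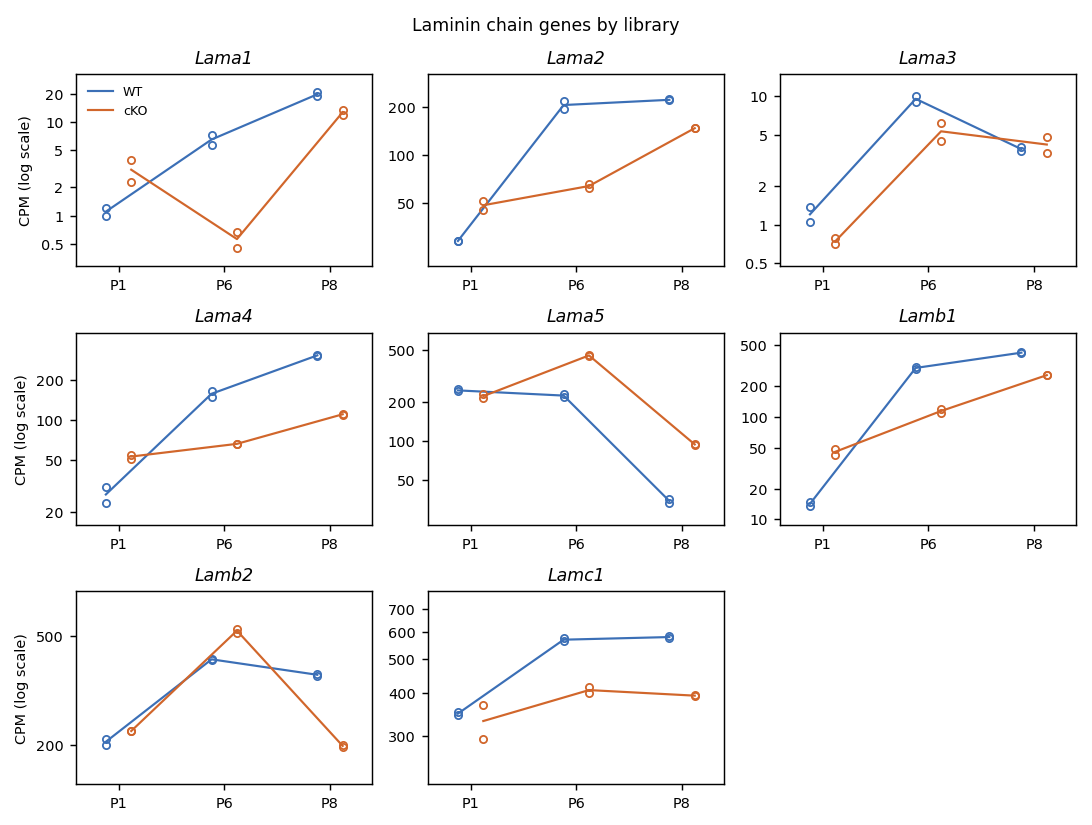
CPM on a log scale (y axis) of 8 laminin chain genes at P1, P6 and P8 (x axis); open circles are single libraries and lines join the means of 2 libraries, blue for the label WT and orange for the label cKO. The orange line lies above the blue one at P6 and P8 for Lama5, and the lines cross between P1 and P6 for Lama1, Lama2, Lama4, Lama5 and Lamb1.

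The make-up of the alpha chains differed between labels at each age. Lama5 took 83.4 ± 1.05% of the summed alpha chain RPKM under the label WT and 71.4 ± 0.450% under the label cKO at P1 (mean ± SD, n = 2). At P6 its share was 41.9 ± 0.878% against 79.97 ± 0.676%, and at P8 it was 6.84 ± 0.249% against 29.4 ± 0.180%. Lama4 held the largest share under the label WT at P8, 57.5 ± 0.0832%, against 32.6 ± 0.146% under the label cKO. The share of Lama2 at P8 was 30.3 ± 0.465% and 31.9 ± 0.131% under the labels WT and cKO. These shares depend on the length used, and with the longest transcript the Lama5 share was 3.83% and 19.0% at P8 and 28.5% and 68.6% at P6. That of Lama2 at P8 was then 28.8% and 35.0%, further apart than with all exons. The order of the labels in these shares was the same by both lengths. With all exons as the length, the summed alpha chain RPKM at P1 was 25.7 ± 0.973 and 27.1 ± 1.02 for the labels WT and cKO. It was 46.7 ± 2.50 and 49.6 ± 0.105 at P6, then 44.5 ± 0.329 and 28.1 ± 0.270 at P8. With the longest transcript, the order of the labels in this sum was the other way round at P6.

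**Figure D3:**
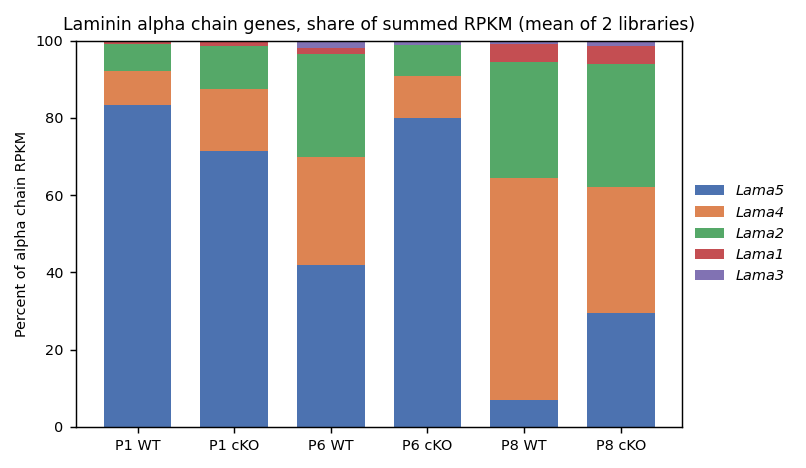
Share of the summed RPKM of the 5 laminin alpha chain genes (y axis, percent) held by each gene in the 6 groups (x axis), as the mean of 2 libraries. The blue part, Lama5, falls from 83.4% at P1 to 6.84% at P8 under the label WT, and is 29.4% at P8 under the label cKO.

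Of the beta chains, Lamb1 had the larger difference at P1 and P6 and Lamb2 at P8. Lamb1 (ENSMUSG00000002900, chromosome 12, 31265234 to 31329644, plus strand) encodes beta 1, the chain of most embryonic and glial laminins. Under the label WT it stood at 13.6 and 14.8 CPM at P1, then at 306 and 291 (P6) and 425 and 415 (P8). The values under the label cKO were 48.9 and 42.3, 118 and 109 and 255 and 253. The libraries labelled cKO were thus above at P1 and below at P6 and P8 (log2 fold change 1.68 ± 0.076, -1.39 ± 0.074 and -0.73 ± 0.073, edgeR adjusted p = 1.72e-06, 1.41e-06 and 5.33e-05). Lamb2, the beta chain of synaptic and mature vessel laminins, was at 200.2 and 211 CPM against 224 and 226 at P1, at 410.1 and 412 against 532 and 513 at P6 and at 359 and 363 against 199.8 and 197 at P8. It was called lower at P8 (log2 -0.86 ± 0.037, edgeR adjusted p = 1.96e-07), where the libraries labelled cKO were below their P1 level. At P6 the difference was of the other sign and under the fold threshold (log2 0.35 ± 0.036, adjusted p = 0.000117), as it was at P1 (0.13 ± 0.036, adjusted p = 0.0585). Lamb1 took 4.06 ± 0.0785% of the beta chain RPKM under the label WT and 11.0 ± 1.07% under the label cKO at P1, 30.8 ± 0.837% and 11.8 ± 0.305% at P6, then 41.7 ± 0.627% and 44.0 ± 0.0536% at P8. With the longest transcript as the length, the P8 shares of Lamb1 were 53.1% and 55.4%. Which beta chain held the larger share at P8 thus depended on the length.

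Lamc1 (ENSMUSG00000026478, chromosome 1, 153218922 to 153332786, minus strand), the gamma chain of the classical trimers, did not meet the call at any age. Its values were 345 and 351 CPM against 294 and 369 at P1, 576 and 564 against 415 and 399.6 at P6, then 576 and 584 against 391 and 394 at P8. At P6 and P8 both libraries labelled cKO were below both labelled WT, with folds under 1.5 (log2 -0.48 ± 0.084, edgeR adjusted p = 0.00247, and -0.56 ± 0.084, adjusted p = 0.000704), and at P1 the groups overlapped (log2 -0.071 ± 0.084, adjusted p = 0.717).

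Of the laminin-binding alpha subunits, Itga3 had the largest difference at P6 and P8. Itga3 (ENSMUSG00000001507, chromosome 11, 95044474 to 95076801, minus strand) encodes alpha 3, the receptor subunit for laminins that hold alpha 5 or alpha 3 chains. Its CPM was 254 and 243 under the label WT and 264 and 277 under the label cKO at P1, 154 and 151 against 611 and 576 at P6, then 24.8 and 27.2 against 139.8 and 139 at P8. The values at P1 lay close together, and from P6 both libraries labelled cKO were several times above both labelled WT. The log2 fold change was 0.12 ± 0.054 at P1 (edgeR adjusted p = 0.23), 1.96 ± 0.056 at P6 (adjusted p = 3.35e-08) and 2.42 ± 0.057 at P8 (adjusted p = 7.03e-09). Itga7, a laminin receptor subunit best known in muscle, was at 43.3 and 47.4 CPM against 42.6 and 45.5 at P1, at 31.4 and 35.0 against 62.7 and 56.2 at P6, and at 14.1 and 11.8 against 21.5 and 22.5 at P8. It overlapped at P1 and was higher under the label cKO at P6 and P8 (log2 -0.042 ± 0.10, 0.84 ± 0.11 and 0.77 ± 0.11, edgeR adjusted p = 0.885, 0.00035 and 0.000444). The Itga7 span overlaps Mettl7b on the other strand in the annotation, and without a stated strand setting reads of the 2 genes cannot be told apart there. Itga6, the alpha 6 subunit of astrocyte and vessel laminin receptors, met the fold threshold at no age, with log2 differences of -0.19 ± 0.046, 0.46 ± 0.046 and 0.28 ± 0.046 (edgeR adjusted p = 0.0333, 8.69e-05 and 0.00127).

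Beta 1 and beta 4 pair with these alpha subunits. Itgb1 was at 897 and 906 CPM against 1182 and 1209 at P1, at 3196 and 3082 against 2533 and 2539.7 at P6, and at 2645 and 2675 against 2082 and 2094 at P8. It was higher under the label cKO at P1 and lower at P6 and P8 with no overlap, and each difference was under the fold threshold (log2 0.41 ± 0.026, -0.31 ± 0.026 and -0.35 ± 0.026, edgeR adjusted p = 1.57e-05, 2.99e-05 and 7.54e-06). Itgb4, which pairs with alpha 6 in hemidesmosomes, was low, at 6.37 and 6.89 CPM against 3.96 and 3.67 at P1, 3.33 and 2.99 against 10.6 and 8.90 at P6, then 8.43 and 6.44 against 10.1 and 9.77 at P8. The label cKO was below at P1 and above at P6 (log2 -0.80 ± 0.16 and 1.63 ± 0.16, edgeR adjusted p = 0.0141 and 8.41e-05), and at P8 the difference was 0.42 ± 0.16 (adjusted p = 0.066, or 0.0281 and called without P8 WT replicate 1). The P1 difference of Itgb4 was the only call of a lower member at that age, and it was lost without WT replicate 2 (adjusted p = 0.0766), without cKO replicate 1 (0.0540), without cKO replicate 2 (0.0850) and with the P1 libraries alone (0.0524).

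**Figure D4:**
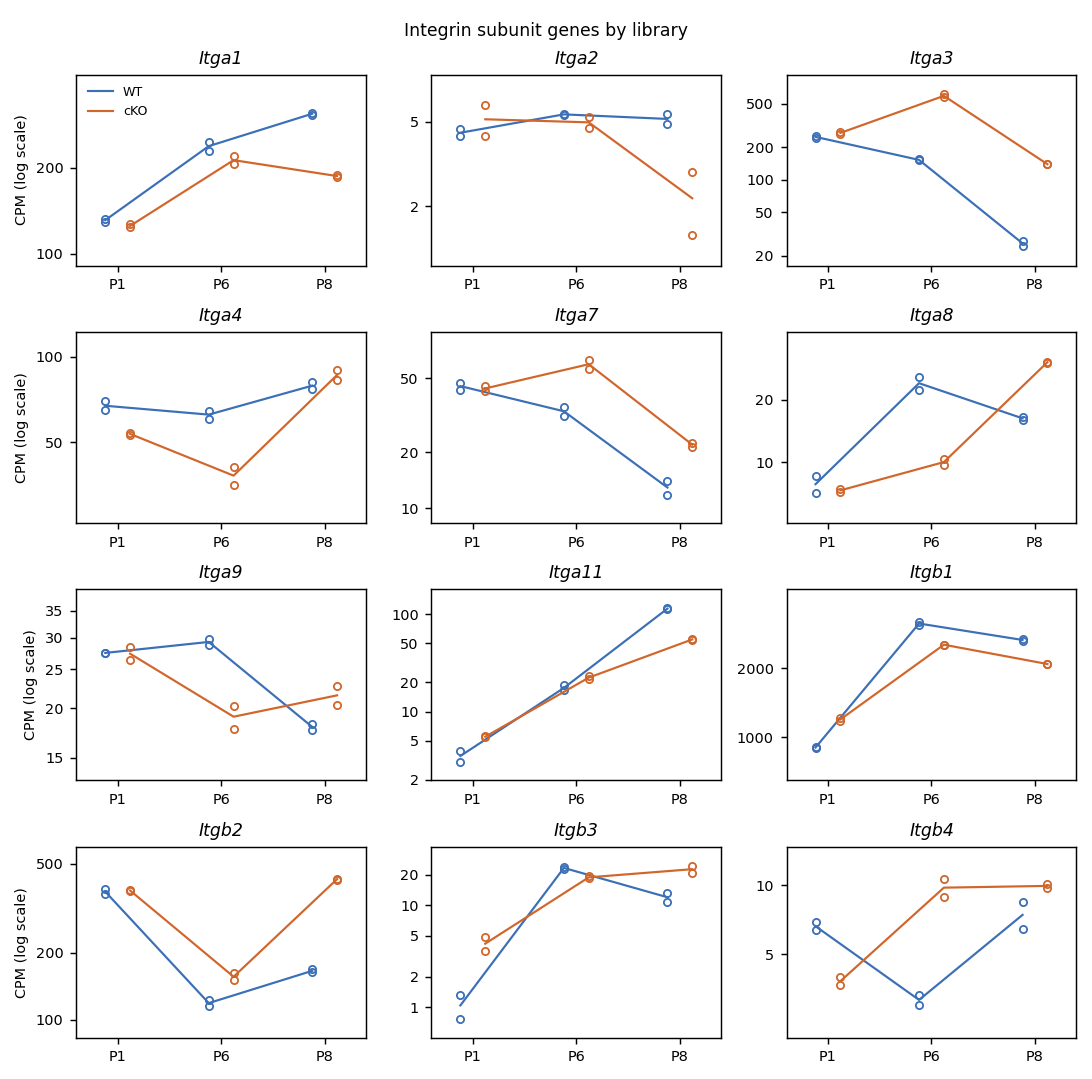
CPM on a log scale (y axis) of 12 integrin subunit genes at P1, P6 and P8 (x axis), namely those called between labels at 1 or more ages and Itgb1; open circles are single libraries and lines join the means of 2 libraries, blue for the label WT and orange for the label cKO. The lines for Itga3 part after P1, those for Itgb2 lie furthest apart at P8, and those for Itga8 and Itgb4 cross.

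Of the 4 collagen-binding alpha subunits, 3 were called lower under the label cKO at P8, against 8.37% of all genes. Itga11, the fibrillar collagen receptor of fibroblasts, was at 3.94 and 3.07 CPM against 5.58 and 5.46 at P1, at 18.5 and 16.5 against 23.0 and 21.6 at P6, and at 115 and 112 against 56.2 and 53.8 at P8. It climbed with age under both labels and less far under the label cKO, so that it was called higher at P1 (log2 0.66 ± 0.12, edgeR adjusted p = 0.00747) and lower at P8 (-1.05 ± 0.11, adjusted p = 6.07e-05), with 0.35 ± 0.11 at P6 (adjusted p = 0.041). The P1 call was lost without WT replicate 2 (fold 1.40) and with the P1 libraries alone (adjusted p = 0.142). Itga2, the alpha 2 subunit of platelets and epithelia, was at 4.61 and 4.26 CPM against 4.28 and 5.99 at P1, at 5.44 and 5.39 against 4.66 and 5.27 at P6, and at 4.89 and 5.42 against 2.89 and 1.46 at P8. It overlapped at P1, lay just below at P6 and was called lower at P8 (log2 0.21 ± 0.29, -0.12 ± 0.28 and -1.25 ± 0.29, edgeR adjusted p = 0.758, 0.814 and 0.00904). Itga1, the alpha 1 subunit for collagen IV, was at 133 and 129 CPM against 127 and 124 at P1, at 247 and 230.1 against 206 and 220.3 at P6, and at 308 and 313 against 188 and 186 at P8. The label cKO was below with no overlap at each age, by less than the fold threshold at P1 and P6, and the call was made at P8 (log2 -0.067 ± 0.049, -0.16 ± 0.048 and -0.73 ± 0.049, edgeR adjusted p = 0.499, 0.0351 and 3.78e-06). Itga1 and Itga2 are neighbours on chromosome 13 of GRCm38, 21.0 kb apart, and the span of Itga1 holds Pelo on the same strand, whose reads could not be told apart here. Itga10, the cartilage receptor subunit, stayed at group means between 1.98 and 3.24 CPM and was called at no age.

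Subunits for fibronectin, vitronectin and related ligands did not move as one group. Itga8, which binds nephronectin and fibronectin, was at 8.53 and 7.08 CPM against 7.14 and 7.43 at P1, at 25.8 and 22.4 against 9.67 and 10.3 at P6, and at 15.98 and 16.6 against 30.6 and 30.4 at P8. The labels overlapped at P1, the label cKO was below at P6 and above at P8 (log2 -0.10 ± 0.11, -1.27 ± 0.11 and 0.90 ± 0.11, edgeR adjusted p = 0.705, 3.91e-05 and 0.000193). Itgb3, the beta subunit of platelet and vitronectin receptors, was at 1.31 and 0.774 CPM against 3.55 and 4.84 at P1, at 22.8 and 23.7 against 19.2 and 18.4 at P6, and at 13.2 and 10.7 against 20.9 and 24.3 at P8. It was called higher at P1 and P8 (log2 2.03 ± 0.24 and 0.92 ± 0.21, edgeR adjusted p = 0.000841 and 0.00852) and was slightly lower without a call at P6 (-0.31 ± 0.21, adjusted p = 0.341). Its P8 call was lost without WT replicate 2 (adjusted p = 0.0685) or without cKO replicate 2 (0.0571). Itgb5 was at 247 and 267 CPM against 209 and 226 at P1, at 415 and 427 against 506 and 474 at P6 and at 404 and 367 against 391 and 376 at P8. None of these differences reached the fold threshold (log2 -0.24 ± 0.063, 0.22 ± 0.063 and -0.007 ± 0.063, edgeR adjusted p = 0.0461, 0.0324 and 0.951). Itga5, the fibronectin receptor subunit, Itgb8, the beta subunit that frees TGF-beta from its latent form in brain, and Itga2b, the platelet subunit, were called at no age, with log2 differences between 0.052 and 0.42, between -0.29 and 0.21, and between -0.45 and 0.13.

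Subunits of leukocyte integrins were led by Itgb2, which pairs with Itgam in microglia. Itgb2 was at 366 and 385 CPM against 381 and 379 at P1, at 122 and 115 against 162 and 151 at P6, and at 169 and 163 against 425 and 429.9 at P8. The labels overlapped at P1, and at P8 the libraries labelled cKO were above the P1 level while those labelled WT were well below it (log2 0.017 ± 0.048, 0.39 ± 0.048 and 1.37 ± 0.049, edgeR adjusted p = 0.905, 0.000314 and 7.02e-08). At P8, microglia markers (8 of 8 in the table) summed to 1593 and 1673 CPM under the label WT. Under the label cKO they summed to 3128 and 3134. There 5 of 8 were called higher (Trem2, Aif1, Tyrobp, P2ry12, C1qa) and 1 lower (Tmem119), against 11.2% and 8.37% of all genes. P2ry12 was at 10.3 and 7.59 CPM under the label WT and at 11.1 and 31.0 under the label cKO, 1 library standing far above the other. Tmem119 was called lower at P1 and P6 as well. At P1 the list summed to 2299 and 2310.1 under the label WT and 1833 and 1922 under the label cKO. The part of microglia in the Itgb2 difference was not tested, and fewer or more cells of a type and a changed amount of RNA per cell cannot be told apart in bulk samples. Itga4, a receptor subunit for fibronectin and Vcam1, was called lower at P6 (group means 62.6 ± 2.87 and 38.2 ± 3.84 CPM, log2 -0.71 ± 0.083, edgeR adjusted p = 0.000227). Its span overlaps Cerkl on the other strand. Itga9, a tenascin and osteopontin receptor subunit, was called lower at P6 as well (group means 29.3 ± 0.609 and 19.0 ± 1.77 CPM, log2 -0.62 ± 0.092, adjusted p = 0.000967), and this call was lost without cKO replicate 1 (fold 1.44).

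Successive ages within a label were compared next, to describe how the members differed between cultures from brains of increasing age. From P1 to P6 under the label WT, 13 members rose and 4 fell, against backgrounds of 12.2% and 10.9%. The largest rises were those of Itgb3 (log2 4.50 ± 0.25), Lamb1 (4.39 ± 0.084) and Lama3 (2.98 ± 0.24), and the largest falls those of Itgb2 (-1.66 ± 0.049), Itgb8 (-1.09 ± 0.094) and Itgb4 (-1.07 ± 0.16). Laminins accounted for 7 of these rises and for none of the falls. Under the label cKO over the same step, 12 members rose and 4 fell (backgrounds 11% and 10.4%), led by Lama3 (2.84 ± 0.24), Itgb3 (2.16 ± 0.22) and Itga11 (2.02 ± 0.11) among the rises and by Lama1 (-2.46 ± 0.29), Itgb2 (-1.28 ± 0.049) and Itgb8 (-0.82 ± 0.094) among the falls. The fall of Itga2b in this step was lost when any of 4 single libraries was left out (adjusted p 0.0501 to 0.191, without P1 cKO replicate 1 or 2, P6 WT replicate 1 or P6 cKO replicate 2).

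From P6 to P8, Lama5, Itga3 and Itga7 had the 3 largest falls under both labels. Under the label WT, 4 members rose and 6 fell (backgrounds 8.66% and 10.3%), with log2 changes of -2.68 ± 0.052 for Lama5, -2.55 ± 0.057 for Itga3 and -1.36 ± 0.11 for Itga7. Itga11 (2.70 ± 0.11), Lama1 (1.60 ± 0.25) and Itgb4 (1.23 ± 0.16) rose most. Under the label cKO, 8 rose and 7 fell (backgrounds 11.9% and 12.2%), with -2.26 ± 0.051 for Lama5, -2.09 ± 0.056 for Itga3 and -1.44 ± 0.11 for Itga7, and the largest rises were those of Lama1 (4.50 ± 0.30), Itga8 (1.61 ± 0.11) and Itgb2 (1.45 ± 0.049). All of these named changes passed edgeR's test with an adjusted p of at most 0.000956. The fall of Itgb3 under the label WT was lost without P8 WT replicate 2 (adjusted p = 0.0593), and that of Itga2b under the label cKO without P6 cKO replicate 1, P8 cKO replicate 1 or P8 cKO replicate 2 (adjusted p 0.0770 to 0.223).

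Whether the genotype difference itself changed with age was tested as an interaction in the same fit, at an adjusted p below 0.05 with no condition on fold. It differed from P1 to P6 for 17 of 26 members (background 15.3%), from P6 to P8 for 16 (21.5%) and from P1 to P8 for 20 (25.7%), and for 23 members in 1 or more of these contrasts. For the last count no share over all genes was taken. The 3 members with none were Itga10, Itga2b and Lama3, and the P6 to P8 change of Lama3 (edgeR adjusted p = 0.0543) passed without P6 cKO replicate 2 (0.0356) and without P8 cKO replicate 2 (0.0461). From P1 to P6 the difference of Lama1 moved by -5.02 ± 0.40, that of Lamb1 by -3.07 ± 0.11, that of Lama2 by -2.41 ± 0.10 and that of Lama4 by -2.22 ± 0.15 on the log2 scale, whereas that of Itgb4 moved by 2.43 ± 0.23, that of Itga3 by 1.84 ± 0.076 and that of Lama5 by 1.17 ± 0.069.

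Other genes of the same system were read from lists. Of 8 basement membrane partners of laminin, 4 were higher under the label cKO at P1 (Nid1, Fbln1, Col4a1, Col4a2). At P6 and at P8 5 were lower (the same 4 and Col18a1). Of all genes, 4.01% were called higher at P1, 6.38% lower at P6 and 8.37% lower at P8. Col4a1, a collagen IV chain, was at 297 and 291 CPM against 529.8 and 654 at P1, at 2797 and 2785 against 855 and 776 at P6 and at 2162 and 2037 against 1270.5 and 1266 at P8 (log2 1.01 ± 0.085, -1.77 ± 0.087 and -0.73 ± 0.085, edgeR adjusted p = 9.47e-05, 8.57e-07 and 0.000143). Col4a2, its partner chain, had log2 differences of 1.74 ± 0.037, -2.02 ± 0.037 and -0.74 ± 0.036. Hspg2, which encodes perlecan, had 0.37 ± 0.064, -0.31 ± 0.064 and -0.51 ± 0.064 and was not called. Col4a1, Col4a2, Nid1 and Fbln1 were thus above at P1 and below afterwards, as Lamb1, Lama2 and Lama4 were. Nid2 and Agrn were called at no age and had another order. Group means of Nid2 were 208 CPM under the label WT and 172 under the label cKO at P1. They were 177 and 242 at P6, and 126 and 98.0 at P8. Agrn had log2 differences of 0.28 ± 0.053, 0.41 ± 0.053 and -0.22 ± 0.053.

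Of 10 laminin receptors other than integrins, none was called at P1, 1 was higher and 1 lower at P6 (Dmd and Sdc1, backgrounds 7.16% and 6.38%), and 1 was higher and 2 lower at P8 (Sdc3, and Sdc1 and Sdc2, backgrounds 11.2% and 8.37%). Dag1, which encodes dystroglycan, the main non-integrin laminin receptor of astrocyte endfeet, had log2 differences of 0.24 ± 0.081, 0.14 ± 0.081 and -0.16 ± 0.081 (edgeR adjusted p = 0.11, 0.265 and 0.173). Sdc3, a syndecan, rose at P8 by 1.48 ± 0.054 (adjusted p = 7.65e-08), and Sdc4 was called at no age. Of 21 integrin adaptors and kinases, 20 were in the table. At P1, 3 of these were higher and 1 lower (backgrounds 4.01% and 0.892%). The P6 comparison gave 2 higher and 1 lower (backgrounds 7.16% and 6.38%), the P8 comparison 4 higher and 1 lower (backgrounds 11.2% and 8.37%). Tln1 (talin), the tensin gene Tns3 and Vcl (vinculin), the 3 of highest mean CPM, were called at no age, with log2 differences from 0.037 to 0.41, from -0.051 to 0.37 and from -0.34 to 0.42. Lims2, a partner of the integrin-linked kinase, was higher at all 3 ages (log2 0.80 ± 0.11, 0.85 ± 0.11 and 0.66 ± 0.11).

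Of 14 other integrin ligands, 13 were in the table, and 3 of them were higher at P1 (background 4.01%). The P6 comparison gave 5 higher and 5 lower (backgrounds 7.16% and 6.38%), the P8 comparison 5 higher and 3 lower (backgrounds 11.2% and 8.37%). Fn1, which encodes fibronectin, was called at P1 (log2 0.70 ± 0.078, edgeR adjusted p = 0.000508). Thbs1 (thrombospondin 1) was higher at P1 and P6 (0.82 ± 0.035 and 1.02 ± 0.036), and Spp1 (osteopontin) at P6 and P8 (0.78 ± 0.034 and 1.67 ± 0.035). Tnc (tenascin C) was higher at all 3 ages, with 0.93 ± 0.043, 2.01 ± 0.044 and 2.04 ± 0.044. The 5 lower ligands at P6 were Tgfb1, Vtn, Emilin1, Edil3 and Icam1. Emilin1, Edil3 and Icam1 were lower again at P8, where Tgfb1 was called higher. The log2 difference of Emilin1 was -2.38 ± 0.058 (P6) and -2.06 ± 0.057 (P8), that of Edil3 -1.67 ± 0.20 and -2.49 ± 0.20. Of the integrin alpha subunits named by letters instead of numbers, 4 were in the table. Itgav, a partner of beta 3, beta 5 and beta 8, was called lower at P6 (-0.88 ± 0.10, adjusted p = 0.000214), Itgax was called higher at P8 (3.75 ± 0.87, adjusted p = 0.00841, with at most 9.50 CPM in any library), and Itgal was not called. Itgam stands under 2 identifiers with reads divided unevenly between them, and no direction is given for it.

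Marker genes of other cell types moved with some members. The shares of all genes called higher and lower, to set beside these lists, were 4.01% and 0.892% at P1. At P6 they were 7.16% and 6.38%, and at P8 11.2% and 8.37%. The fibroblast and meninges list was called higher for 6 of 7 genes at P1 and lower for 6 of 7 at P6 and at P8 (Col1a1, Col1a2, Col3a1, Dcn, Lum and Foxc1 each time), the directions of Lamb1, Lama2 and Lama4 at those ages. Itga3 and Lama5 did not go with the list at P6 and P8, where they were higher under the label cKO and the list was lower. Endothelial markers, of which 4 of 8 were in the table, summed to 23.8 and 25.6 CPM under the label WT and 47.6 and 50.2 under the label cKO at P1, to 120.0 and 124 and 58.5 and 62.5 at P6 and to 148 and 161 and 36.9 and 39.9 at P8. The 4 genes did not move as one. Flt1 and Cdh5 were called higher at P1, Tek, Cdh5 and Kdr lower at P6, and at P8 Tek and Cdh5 lower and Flt1 higher (log2 1.92 ± 0.19, edgeR adjusted p = 4.94e-05). Cdh5 made up most of the P8 sum under the label WT, with 125 and 141 CPM against 10.1 and 9.59 under the label cKO. The 7 members called lower at P8 were Itga1, Itga2, Itga11, Lama2, Lama4, Lamb1 and Lamb2. Of these, Itga11, Lama2, Lama4 and Lamb1 were called higher at P1, as 6 of 7 genes of the fibroblast and meninges list were. Itga11 was not called at P6. Of the 8 astrocyte markers, 4 were called lower at P8 (Gfap, Aqp4, S100b and Gja1), and none was called higher. Aldh1l1 of the same list had the other sign there, under the fold threshold (log2 0.49 ± 0.068, edgeR adjusted p = 0.000446). The part of other cell types and of the number of astrocytes in these differences was not tested.

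**Figure D5:**
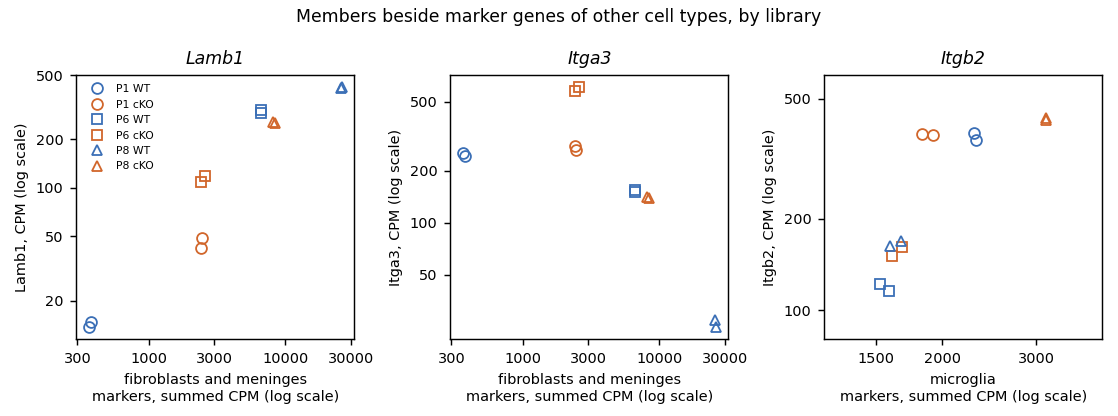
Each symbol is 1 library, with the summed CPM of a marker list on the x axis and the CPM of a member on the y axis, both on log scales; shapes give the age and colours the label. Lamb1 is lowest in the P1 libraries labelled WT and highest in the P8 libraries labelled WT, as is the fibroblast and meninges list, Itga3 is lowest where that list is highest, and Itgb2 and the microglia list are both highest in the P8 libraries labelled cKO.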

How the data were processed

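RNA was sequenced in 12 libraries of primary mouse astrocytes (6 groups of 2). The authors mapped the reads with HISAT2 to GRCm38 (mm10) and deposited whole-number counts per gene, not normalized. For the counting program, annotation and strand setting, the sources used here give nothing. Groups were taken from the sample labels. The members and lists were chosen with earlier results of these data known. The rule on symbols found 27 genes, of which 1 is not reported here. From the counts, edgeR 4.0.16 in R 4.3.3 (filterByExpr, TMM scaling, quasi-likelihood test, 6 group means over all 12 libraries) tested 17938 of 18903 genes, with Benjamini-Hochberg adjustment over all of them. The common biological coefficient of variation was 0.178. Calls required an adjusted p below 0.05 together with a 1.5-fold change or more, interactions the adjusted p alone. Standard errors are the absolute log2 fold change divided by the square root of F. CPM used TMM-scaled library sizes, and RPKM the summed exon length of GENCODE vM21. The test was checked on simulated counts. Values in all libraries are given for the 16 called members of largest absolute log2 fold change whose mean reached 1 CPM, and for the 3 integrins and 3 laminins of highest RPKM. Time steps name the 3 largest called changes each way. Alternatives were DESeq2 1.42.0, its size factors, no filter, the libraries of 1 time point alone, a replicate block, other call rules and leaving out each library in turn. Replicates of a group differed by more than sampling noise (chi-square per degree of freedom 30.5 to 47.1).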

Additional observations from a re-analysis of the deposited data

Results flagged for a closer look

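The genotype difference of 23 members changed between ages by edgeR's interaction test with Benjamini-Hochberg adjustment, in 53 contrasts. Of all genes tested, 15.3% passed from P1 to P6, 21.5% from P6 to P8 and 25.7% from P1 to P8. Each value below is the change of the log2 difference between the labels, with the adjusted p in parentheses, and a positive value means that the label cKO gained on the label WT with age.

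Among the laminin alpha chains, that of Lama1 changed by -5.02 from P1 to P6 (3.3e-05), 2.89 from P6 to P8 (0.000578) and -2.13 from P1 to P8 (0.00219). That of Lama2 changed by -2.41 from P1 to P6 (5.32e-07), 1.09 from P6 to P8 (7.98e-05) and -1.32 from P1 to P8 (1.54e-05). For Lama4 the change was -2.22 from P1 to P6 (1.21e-05) and -2.44 from P1 to P8 (3.7e-06). That of Lama5 changed by 1.17 from P1 to P6 (4.44e-06), 0.42 from P6 to P8 (0.00243) and 1.59 from P1 to P8 (3.83e-07).

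Among the other laminin chains, that of Lamb1 changed by -3.07 from P1 to P6 (1.23e-07), 0.67 from P6 to P8 (0.00162) and -2.41 from P1 to P8 (3.82e-07). That of Lamb2 changed by 0.22 from P1 to P6 (0.0205), -1.21 from P6 to P8 (6.96e-07) and -0.99 from P1 to P8 (1.15e-06). For Lamc1 the change was -0.41 from P1 to P6 (0.0465) and -0.49 from P1 to P8 (0.0142). The change of Lamb2 from P1 to P6 was lost with P1 WT replicate 2, P1 cKO replicate 1, P1 cKO replicate 2, P6 WT replicate 1, P6 WT replicate 2, P6 cKO replicate 1 left out in turn (adjusted p 0.0511 to 0.0822). The change of Lamc1 from P1 to P6 was lost with P1 WT replicate 1, P1 WT replicate 2, P6 WT replicate 1, P6 WT replicate 2, P6 cKO replicate 1, P6 cKO replicate 2, P8 WT replicate 1, P8 WT replicate 2, P8 cKO replicate 1, P8 cKO replicate 2 left out in turn (adjusted p 0.0699 to 0.121).

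Among the laminin-binding subunits and their partners, that of Itga3 changed by 1.84 from P1 to P6 (4.01e-07), 0.46 from P6 to P8 (0.00238) and 2.30 from P1 to P8 (8.5e-08). That of Itga6 changed by 0.65 from P1 to P6 (0.000158) and 0.47 from P1 to P8 (0.000623). For Itga7 the change was 0.88 from P1 to P6 (0.00354) and 0.81 from P1 to P8 (0.00339). That of Itgb1 changed by -0.71 from P1 to P6 (1.7e-06) and -0.76 from P1 to P8 (7.5e-07). For Itgb4 the change was 2.43 from P1 to P6 (0.0001), -1.21 from P6 to P8 (0.00442) and 1.22 from P1 to P8 (0.00324).

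Among the collagen-binding subunits, that of Itga1 changed by -0.56 from P6 to P8 (0.000384) and -0.66 from P1 to P8 (0.000101). That of Itga2 changed by -1.46 from P1 to P8 (0.0276). For Itga11 the change was -1.40 from P6 to P8 (0.000188) and -1.71 from P1 to P8 (4.88e-05). The change of Itga2 from P1 to P8 was lost with P1 WT replicate 1, P1 WT replicate 2, P1 cKO replicate 2, P8 WT replicate 1, P8 WT replicate 2 left out in turn (adjusted p 0.0538 to 0.0931).

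Among the subunits for fibronectin, vitronectin and related ligands, that of Itga5 changed by 0.37 from P6 to P8 (0.00455) and 0.27 from P1 to P8 (0.019). That of Itga8 changed by -1.17 from P1 to P6 (0.00102), 2.18 from P6 to P8 (1.53e-05) and 1.00 from P1 to P8 (0.00132). For Itgb3 the change was -2.34 from P1 to P6 (0.00111), 1.22 from P6 to P8 (0.0175) and -1.11 from P1 to P8 (0.0311). That of Itgb5 changed by 0.46 from P1 to P6 (0.00794). For Itgb8 the change was -0.50 from P6 to P8 (0.0247). The change of Itga5 from P1 to P8 was lost with P1 WT replicate 2, P1 cKO replicate 2, P8 WT replicate 2, P8 cKO replicate 2 left out in turn (adjusted p 0.0539 to 0.0787). The change of Itgb3 from P6 to P8 was lost with P6 cKO replicate 2, P8 WT replicate 2, P8 cKO replicate 2 left out in turn (adjusted p 0.0549 to 0.0674). The change of Itgb3 from P1 to P8 was lost with P1 WT replicate 2, P1 cKO replicate 2, P8 WT replicate 1, P8 cKO replicate 1, P8 cKO replicate 2 left out in turn (adjusted p 0.0519 to 0.104). The change of Itgb8 from P6 to P8 was lost with P6 WT replicate 1, P6 WT replicate 2, P8 WT replicate 1, P8 WT replicate 2, P8 cKO replicate 1, P8 cKO replicate 2 left out in turn (adjusted p 0.0558 to 0.0748).

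Among the leukocyte and other subunits, that of Itga4 changed by 0.84 from P6 to P8 (0.000876) and 0.45 from P1 to P8 (0.0188). That of Itga9 changed by -0.62 from P1 to P6 (0.0117) and 0.88 from P6 to P8 (0.0012). For Itgb2 the change was 0.38 from P1 to P6 (0.00532), 0.97 from P6 to P8 (1.28e-05) and 1.35 from P1 to P8 (9.51e-07). The change of Itga4 from P1 to P8 was lost with P1 WT replicate 1, P1 cKO replicate 2, P8 WT replicate 1, P8 cKO replicate 2 left out in turn (adjusted p 0.0554 to 0.0738).

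Other changes between ages passed the threshold only under an alternative. From P1 to P6 these were that of Itgb8 (adjusted p 0.00471 without P6 cKO replicate 1), Itga4 (0.0219 without P6 cKO replicate 2 and 0.0360 with DESeq2) and Itga11 (0.0443 without P1 WT replicate 1). From P6 to P8 they were that of Itga2 (0.00760 without P8 cKO replicate 1 and 0.0407 with DESeq2), Itga6 (0.0457 with DESeq2) and Lama3 (0.0356 without P6 cKO replicate 2 and 0.0461 without P8 cKO replicate 2), and from P1 to P8 that of Itgb8 (0.0269 without P6 cKO replicate 1 and 0.0278 without P6 cKO replicate 2).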

How the results depend on the processing

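The 32 called genotype differences of members kept their direction in all 544 recomputed values, of which 528 stayed on the same side of the threshold and 16 did not, and the latter are given beside the genes concerned. Requiring a fold change of at least 2 left 3 higher members at P1, 0 lower at P1, 5 lower at P6, 3 higher and 3 lower at P8, and 2 lower from P1 to P6 under the label cKO, which follows from the stricter rule. The single lower member at P1 became 0 with the P1 libraries alone and 2 with an unadjusted p below 0.05, and leaving out a library gave 0 to 1. Under a replicate block, the counts were the same except for the P1 to P6 interaction, 16 in place of 17 members, since Lamc1 had an adjusted p of 0.0579. The labels do not tie a shared number to a shared litter or day, and the correlations of same-numbered deviations lay between -0.0448 and 0.0743 over 15 pairs of groups. The same Lamc1 change had an adjusted p of 0.0502 with DESeq2 size factors. Falls gained by leaving out a library were those of Itga8 from P6 to P8 under the label WT (adjusted p 0.00518 without P6 WT replicate 2 and 0.0194 without P8 WT replicate 2) and, from P1 to P6 under the label cKO, those of Itga4 (0.00122) and Itga9 (0.00247) without P6 cKO replicate 2 and of Itga10 (0.0329) without P6 cKO replicate 1. DESeq2 and its size factors moved the median log2 change of all genes by at most 0.03. Counts limit the precision for members near 1 CPM (Lama1, Lama3, Itgb3 at P1). With a single library left out, the remaining one is assumed to vary like the other groups.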

Other observations

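The other cell type lists were as follows in summed CPM. Beside their calls stand the shares of all genes called higher and lower, 4.01% and 0.892% at P1. These shares were 7.16% and 6.38% at P6, and 11.2% and 8.37% at P8. Mural cell markers (6 of 8 in the table) lay between 2572 and 4602, with 2 called higher and none lower under the label cKO at P1, 1 higher and 2 lower at P6, and 1 each way at P8. Oligodendrocyte lineage markers (6 of 8) lay between 65.7 and 127, with no call at P1, 2 lower at P6, and 1 higher and 2 lower at P8. Neuron markers (4 of 8) lay between 120.1 and 403, with 1, 3 and 2 called higher at P1, P6 and P8. Ependymal and choroid plexus markers (7 of 8) lay between 37.4 and 249, and 1 was called higher at P1, 2 higher and 1 lower at P6 and the same numbers at P8. Megakaryocyte and platelet markers (4 of 6, with Itgb3 itself among them) lay between 31.9 and 75.7, and besides Itgb3 only Pf4 was called, lower at P6 and higher at P8. Schwann cell markers (4 of 5) lay between 18.7 and 169, with 1 lower at each age.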
